A study of Mus musculus with 12 samples.

Results

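B cells from outside the germinal centres of the spleen were compared between lupus-prone mice labelled as lacking the type I interferon receptor chain Ifnar1 and lupus-prone mice labelled with no such deletion. The comparison used 6 of the 12 libraries of the series, chosen by their labelled cell type and genotype. Of these, 3 libraries had the genotype B6.Sle1b and 3 had the genotype B6.Sle1b.IFNaR1-/-, called Sle1b and Ifnar1KO below. Sle1b, an interval that confers susceptibility to lupus, was thus present in both groups, whose mice were females of 6 months on a C57BL/6J background. The sorted cells were live and B220+, with no staining for GL7 or CD95, and are called non-GC B cells, where GC stands for germinal centre. The labels tie the deletion to no cell type. They describe sorting from pooled splenocytes and name no animal for any library, so a p-value here measures only how far these samples spread, and that spread may be technical. The series asks how type I interferon receptor signalling bears on B cells in autoimmune-prone germinal centres, and the non-GC comparison describes the same genotypes in B cells outside them.

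Type I interferons bind a receptor made of the chains Ifnar1 and Ifnar2. The kinases Jak1 and Tyk2 on its inner side activate STAT proteins, which with Irf9 bind interferon-stimulated response elements in the promoters of interferon-stimulated genes. These genes encode antiviral enzymes, nucleic acid sensors, ubiquitin-like modifiers and feedback inhibitors, and a high level of them in blood cells is a known feature of lupus. The Sle1b interval holds genes of the SLAM family of lymphocyte receptors and is known for the loss of B cell tolerance and for spontaneous germinal centres.

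RNA was measured as FPKM, fragments per kilobase of transcript scaled to the number of mapped fragments, and each of 3 batches held 1 library of each genotype in a table of its own. Genotypes were compared within a batch, on log2(FPKM + 1), a scale that understates the change of low genes. One read on a transcript of 1 kb was worth 0.163 to 0.237 FPKM. The batch 3 libraries stood apart from the others: they had 160601 and 208065 unnamed loci above 0 against 10129 to 27614, and 3884 and 4570 of the 11481 tested genes were listed at 0 against 129 to 464. The 10 highest genes held 69.5% and 83.8% of their named FPKM against 23.02% to 29.33%. The sort matched its label in batches 1 and 2, where the summed B cell markers (8 genes) lay between 2311 and 3265 FPKM and the naive B cell gene Fcer2a between 185 and 219.7 FPKM, while the germinal centre receptor gene S1pr2 did not pass 0.270 FPKM. In batch 3 the B cell sum was 195 FPKM in Sle1b and 231 FPKM in Ifnar1KO, and Fcer2a was 18.7 and 15.7 FPKM.

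Ifnar1 itself, on chr16:91485238-91507441 (GRCm38), went against the labels in batches 1 and 2. Its level was 22.7, 38.0 and 3.01 FPKM in the Sle1b libraries of batches 1, 2 and 3, and 70.8, 70.6 and 2.27 FPKM in the libraries labelled Ifnar1KO. The groups overlapped, and the labelled knockouts were higher in batches 1 and 2 and lower in batch 3. The fitted log2 difference (Ifnar1KO minus Sle1b, limma with batch as a block) was 0.73 with a standard error of 0.47 and an adjusted p of 0.893. The value covers the whole locus and not a deleted exon, so it cannot check the deletion, and every direction below rests on the labels. Within 5 Mb of Ifnar1, where 47 genes were tested, 23 lay below 0 and 24 above 0, the median log2 difference was 0.00 and no gene passed the test. The nearest tested genes were Paxbp1, the item that joins Ifnar2 and Il10rb with a predicted gene, and A930006K02Rik on one side. Ifngr2, a chain of the interferon gamma receptor, lay on the other side with Tmem50b and Dnajc28, and was 12.8, 18.2 and 0.898 FPKM in Sle1b against 14.2, 20.6 and 0.976 FPKM in Ifnar1KO, so each batch pair was close.

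With 3 pairs of libraries, no gene passed the test across all genes. In limma 0 of 11481 genes (0%) had an adjusted p under 0.05, and the smallest adjusted p was 0.893. At an unadjusted p under 0.05 there were 415 genes (3.61%), of which 231 (2.01%) were lower and 184 (1.6%) higher in Ifnar1KO. For a single gene, the smallest p that an exact two-sided sign-flip test can reach with 3 pairs is 0.25. What follows therefore describes levels and differences, and no gene is called changed. As the cells were measured in bulk, fewer cells of a type and less RNA per cell cannot be told apart.

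Type I interferon-stimulated genes were lower in the libraries labelled Ifnar1KO as a group. Of a list of 70 such genes, 55 reached 1 FPKM in 3 or more libraries and were tested. Of these, 44 lay below 0 (80%, against 52.8% of all genes tested) and 11 above 0. Their median log2 difference was -0.70, and it was -0.60, -0.83 and -0.51 in batches 1, 2 and 3, whereas the median of all genes was -0.04 overall and lay between 0 and 0.05 in the single batches. No member passed the test. At an unadjusted p under 0.05, 18 members were lower (2.01% of all genes) and none higher (1.6% of all genes). The count in either direction was 11 without batch 1, 11 without batch 2 and 22 without batch 3. In all 3 batches, 26 members were lower (10.6% of all genes) and none was higher (10.1% of all genes). In batches 1 and 2 alone, 46 members were lower in both (22.8% of all genes) and 2 were higher in both (29.7% of all genes). This list and the others below were chosen with earlier results of these data known. The role groups within it were drawn after the values were seen. Counts of members set beside shares of all genes therefore describe these data and are no independent support.

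Because the filter keeps a gene that is high in only 1 group, it can favour one direction: 3 of the 55 members, and 20 of all 11481 genes, passed it through the Sle1b libraries alone. Through the Ifnar1KO libraries alone 31 genes passed, none of them a member. With no filter, all 70 members were above 0 in at least 1 library, and 28 were lower in all 3 batches and none higher, against 5.54% lower among all 24276 items detected. In batches 1 and 2, 56 of the 70 were lower in both, against 12.8% of those items.

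**Figure D1:**
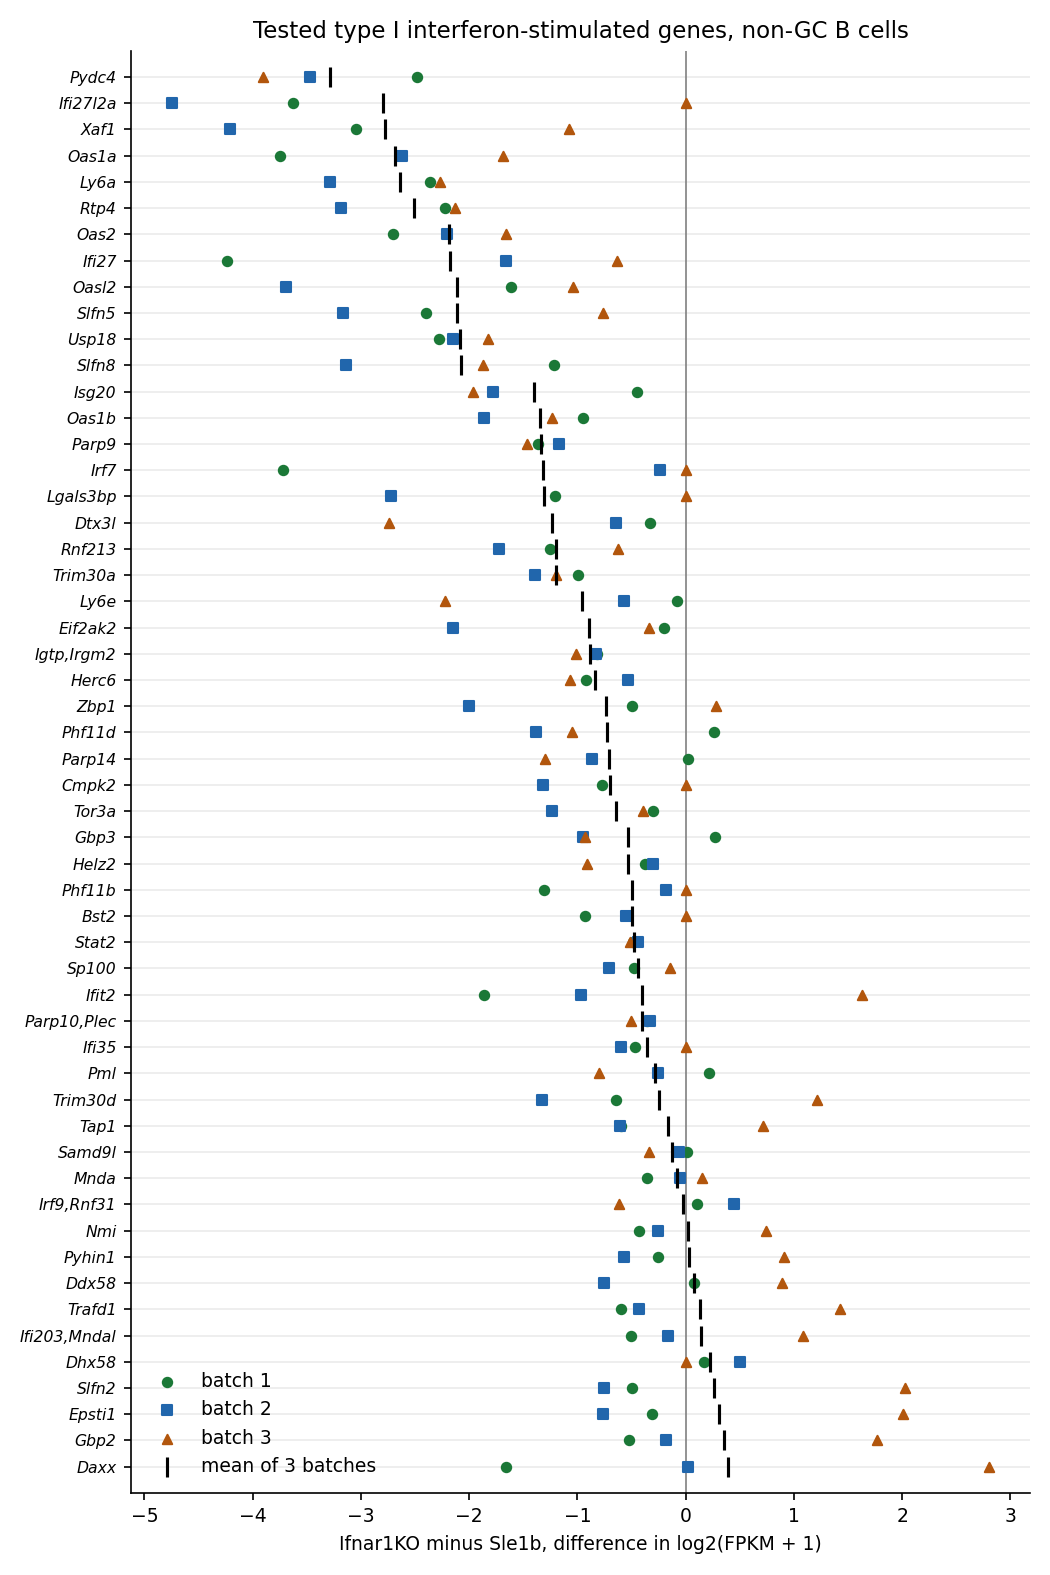
Each of the 54 rows is a tested type I interferon-stimulated gene (1 tested item is not drawn), with the difference in log2(FPKM + 1) between Ifnar1KO and Sle1b non-GC B cells on the horizontal axis. Coloured symbols are the 3 batches and the black bar is their mean, and 44 of the means lie left of 0, with batch 3 (triangles) spread more widely to the right than batches 1 and 2.

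The 2'-5' oligoadenylate synthetases make the messenger that activates the antiviral nuclease RNase L, and the 4 tested members were lower in all 3 batches (10.6% of all genes), although Oas2 and Oasl2 passed the filter through the Sle1b libraries alone. Of the 3 members too low to be tested, Oas3 was higher in batch 3, and Oas1g and Oasl1 were listed at 0 in both libraries of that batch. Oas1a was 12.4, 5.13 and 10.4 FPKM in Sle1b and was listed at 0, 0 and 2.54 FPKM in Ifnar1KO. The groups did not overlap, as was so for 0.941% of all genes in the lower direction. Its log2 difference was -2.68 with a standard error of 0.50 (adjusted p = 0.893, as for every gene with an unadjusted p under 0.05). Oas2 was 5.511, 4.599 and 2.152 FPKM against 0, 0.216 and 0 FPKM, a log2 difference of -2.19 ± 0.40 (SE), again with no overlap. Oas1b, at 54.8, 77.0 and 1.35 FPKM against 27.9, 20.4 and 0 FPKM, and Oasl2, at 4.53, 11.9 and 2.33 FPKM against 0.807, 0 and 0.619 FPKM, were lower within each batch by -1.35 and -2.11. Oas1a, Oas1b and Oas1g are close paralogs, and reads shared between them make their single values uncertain.

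Among the IFIT, Mx and other antiviral effectors, 12 of 13 tested members lay below 0 (52.8% of all genes) and 6 were lower in all 3 batches (10.6%). Rtp4, a chaperone of membrane receptors, was 3.67, 8.07 and 3.39 FPKM in Sle1b and listed at 0 in all 3 Ifnar1KO libraries. It passed the filter through the Sle1b libraries alone. Ifi27l2a, a small mitochondrial protein, was 34.0, 25.8 and 0 FPKM against 1.83, 0 and 0 FPKM, so only batches 1 and 2 gave a comparison. Its relative Ifi27 was 27.1, 37.7 and 2.52 FPKM against 0.493, 11.2 and 1.26 FPKM, lower in each batch, with a log2 difference of -2.18 ± 0.73 (SE). Isg20, an exonuclease of viral RNA, was 4.21, 8.86 and 2.89 FPKM against 2.81, 1.87 and 0 FPKM. The ranges were apart (0.941% of all genes), but only by little, at 2.89 against 2.81 FPKM. By contrast Samd9l was close to equal, at 75.0, 48.9 and 6.23 FPKM against 75.9, 47.0 and 4.72 FPKM.

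Among surface and feedback genes, Ly6a, which encodes the GPI-anchored lymphocyte antigen Sca-1, was 349.8, 142 and 21.2 FPKM in Sle1b against 67.1, 13.7 and 3.58 FPKM in Ifnar1KO. It was lower within each batch, although the batch 3 Sle1b value lay inside the Ifnar1KO range, and its log2 difference was -2.64 ± 0.37 (SE). Usp18, the enzyme that removes Isg15 from proteins and dampens signalling at the receptor, was 4.87, 3.42 and 8.85 FPKM against 0.208, 0 and 1.78 FPKM. All 3 Sle1b values exceeded all 3 Ifnar1KO values, as was so for 0.941% of all genes. The cell surface protein Ly6e was 1066, 600.4 and 15.2 FPKM against 1007, 404.5 and 2.47 FPKM, a difference below 0 in each batch that was small in batch 1 (-0.08) and large in batch 3 (-2.22).

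Pydc4, which RefSeq lists as Ifi213, a PYHIN family gene on chr1:173565415-173599290, had the lowest fitted difference of the list. It was 63.0, 87.1 and 13.9 FPKM in Sle1b against 10.4, 6.94 and 0 FPKM in Ifnar1KO, with no overlap (0.941% of all genes in the lower direction). The log2 difference of Pydc4 was -3.29 ± 0.42 (SE). Its neighbours in the same cluster differed: Gm4955 (RefSeq Ifi206) was 116, 90.7 and 10.9 FPKM against 38.2, 26.4 and 1.75 FPKM, and Pydc3 (RefSeq Ifi208) was 47.6, 38.6 and 12.5 FPKM against 15.7, 11.8 and 1.15 FPKM, both lower in every batch. The item that joins Ifi203 with Mndal was 598, 459.9 and 39.9 FPKM against 420.4, 411.9 and 85.8 FPKM, lower in batches 1 and 2 and higher in batch 3. PYHIN genes are similar in sequence, and how the authors' counting divided their reads is not given in the sources used here.

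Schlafen proteins restrict translation and cell growth. Slfn8 was 38.6, 54.7 and 3.85 FPKM against 16.1, 5.34 and 0.327 FPKM, and Slfn5 was 11.1, 17.2 and 1.43 FPKM against 1.304, 1.032 and 0.438 FPKM. Both were lower in every batch. For Slfn5 the ranges did not overlap (0.941% of all genes), though they were apart by little, at 1.43 against 1.304 FPKM. Slfn2 was lower in batches 1 and 2 but was 0 FPKM in Sle1b and 3.07 FPKM in Ifnar1KO in batch 3.

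Of the TRIM, ubiquitin ligase and PARP proteins, 6 of 9 tested members were lower in all 3 batches (10.6% of all genes). Trim30a, a ubiquitin ligase of the TRIM family, was 59.0, 75.7 and 16.3 FPKM against 29.1, 28.2 and 6.57 FPKM, and its 3 differences were close to each other at -0.9955, -1.394 and -1.195. Parp9, an ADP-ribosyltransferase partner of Dtx3l, was 15.6, 12.2 and 1.75 FPKM against 5.45, 4.88 and 0 FPKM, a log2 difference of -1.33 ± 0.35 (SE). Rnf213 and Herc6 were likewise lower in every batch, with log2 differences of -1.20 and -0.84. Xaf1, a pro-apoptotic partner of an inhibitor of apoptosis, was 31.6, 32.0 and 2.62 FPKM against 2.94, 0.788 and 0.712 FPKM. Its log2 difference was -2.78 ± 0.65 (SE), widest in batch 2.

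**Figure D2:**
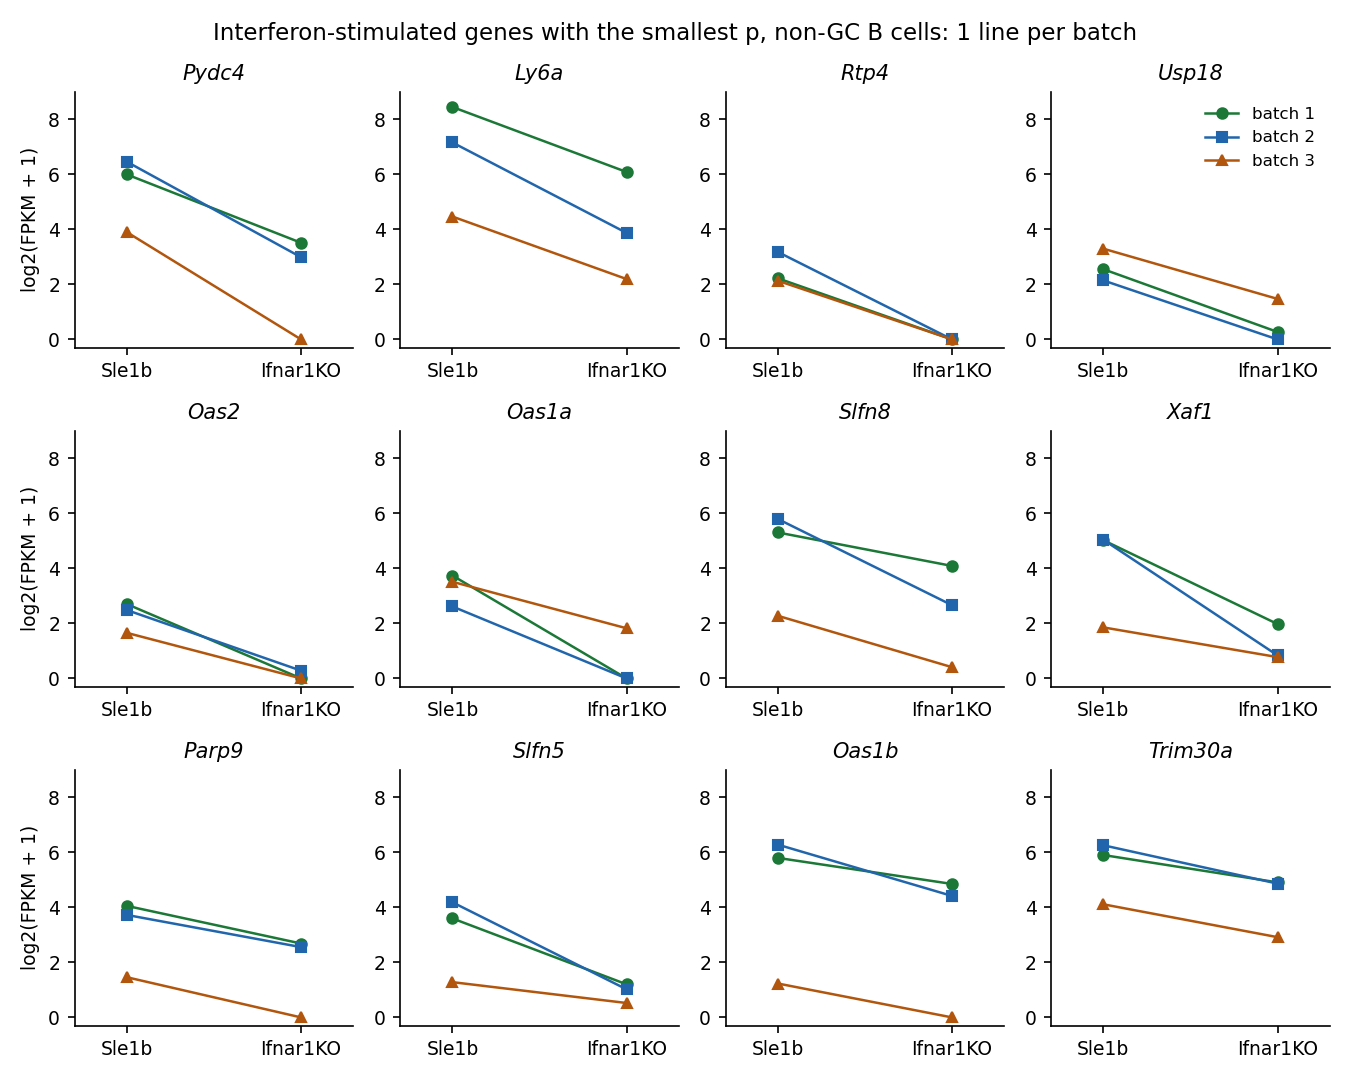
Levels as log2(FPKM + 1) of the 12 type I interferon-stimulated genes with the smallest unadjusted p, in Sle1b (left) and Ifnar1KO (right) non-GC B cells, with 1 line per batch. Every line slopes down, and in Rtp4 all 3 Ifnar1KO points are at 0.

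Promoter sequence was examined for the interferon-stimulated response element, here the letters GAAA, any 2 bases and a second GAAA, or their reverse complement (TTTC, any 2 bases, TTTC), so that both strands were searched. In RefSeq promoter windows of 250 bases before to 50 after a gene's start (GRCm38.p6), a match was present for 3.99% of the 27025 symbols that had a window. It was present for 25 of the 53 list members that had one (47.2%). Among tested members with a window 17 of 41 held a match, against 3.74% of all 7088 tested genes with a window, and 9 of 17 that were lower in all 3 batches held a match, and 8 of the 24 others did. Among all tested genes with a window the share was 6.26% of the 767 lower in all 3 batches and 3.26% of the 736 higher in all 3. The stretches below show where the element lies in 4 of the leading genes, 5′ to 3′ on the strand of the gene and ending before its start, with the match in capitals. Pydc4 (Ifi213) is at chr1:173599311-173599370 on the minus strand, Oas1a at chr5:120907526-120907570 on the minus strand, Slfn8 at chr11:83020824-83020883 on the minus strand and Slfn5 at chr11:82951922-82951981 on the plus strand.
Pydc4: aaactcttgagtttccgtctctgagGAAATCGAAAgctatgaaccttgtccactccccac
Oas1a: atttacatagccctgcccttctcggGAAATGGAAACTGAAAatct
Slfn8: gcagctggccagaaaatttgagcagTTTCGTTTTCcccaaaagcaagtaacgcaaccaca
Slfn5: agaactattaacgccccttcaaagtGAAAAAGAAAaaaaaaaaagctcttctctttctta
Oas1a holds 2 overlapping matches that lie next to its start, and Slfn8 holds the match in reverse orientation. The Xaf1 window holds no match, which says only that these letters are not in that window. A match is a description of sequence and not a measured binding site.

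Of the 70 list members, 15 were too low to be tested, and 10 of these were lower in both batches 1 and 2. Mx1, a GTPase that traps viral nucleocapsids, was 1.94, 5.22 and 0.653 FPKM in Sle1b against 0, 0 and 0.710 FPKM in Ifnar1KO. Oasl1 was 3.31 and 6.03 FPKM in the Sle1b libraries of batches 1 and 2 and was listed at 0 in the 4 other libraries. Ifih1, the RNA sensor MDA5, was 6.20, 6.15 and 0 FPKM against 0.616, 0.411 and 0.147 FPKM. Oas3 was 3.70, 3.23 and 0.0770 FPKM against 0.289, 0 and 0.335 FPKM. In batches 1 and 2 these genes were each lower in Ifnar1KO, and in batch 3 none of them was. Isg15 was listed at 0 in every library except Ifnar1KO of batch 2, which had 0.410 FPKM, so it gave no comparison.

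Several members did not follow the group, or followed it mainly in 1 batch. Irf9, joined with Rnf31, was 125, 136 and 3.08 FPKM against 135, 186 and 1.66 FPKM. The RNA sensor Ddx58 (RIG-I) had a log2 difference of 0.08 and its relative Dhx58 one of 0.22. Daxx had the highest difference of the list at 0.39, made of -1.66 in batch 1, 0.02 in batch 2 and 2.80 in batch 3. Irf7, which amplifies interferon production, was 14.4 FPKM against 0.168 FPKM in batch 1, 4.43 against 3.60 FPKM in batch 2 and listed at 0 in both libraries of batch 3. The fitted log2 difference of Irf7 was -1.32, below 0 like the group, but it rests mainly on the large difference in 1 batch.

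The genes that carry the signal from the receptor were not lower as a group. Of 19 tested interferon receptor chains and JAK-STAT genes, 13 lay above 0 and 6 below 0, none passed the test, and their median log2 difference was 0.18. Only Usp18, described above, had an unadjusted p under 0.05. Tyk2, the kinase bound to Ifnar1, was 11.3, 8.34 and 0 FPKM in Sle1b against 10.47, 11.66 and 6.962 FPKM in Ifnar1KO. Stat2 was 16.7, 13.3 and 0.425 FPKM against 11.6, 9.49 and 0 FPKM, with nearly equal differences of -0.48, -0.44 and -0.51.

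Genes associated with interferon gamma were also lower, with 12 of 15 tested members below 0 (52.8% of all genes) and a median log2 difference of -0.68. In all 3 batches 7 were lower (10.6% of all genes). Gbp2, Gbp3 and the item that joins Igtp with Irgm2 are also on the type I list, so the 2 lists are not separate. The immunity-related GTPases, which attack vacuoles of intracellular pathogens, led the interferon gamma list. Irgm1 was 16.7, 22.8 and 5.21 FPKM against 11.1, 6.35 and 0.314 FPKM, and Tgtp2 was 28.6, 14.4 and 1.73 FPKM against 5.502, 4.77 and 1.011 FPKM. The item that joins Ifi47 with the overlapping Olfr56 was 61.6, 57.9 and 9.11 FPKM against 31.2, 19.7 and 1.96 FPKM. Each was lower within every batch, and 5 members of the list were lower at an unadjusted p under 0.05 (2.01% of all genes). Without batch 1 or without batch 2 the count in either direction was 1, and no member passed the adjusted test.

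MHC class I and immunoproteasome genes, which present peptides of the cell's own proteins, had 15 of 20 tested members below 0 and a median log2 difference of -0.24, and 4 were lower in all 3 batches (10.6% of all genes). Their median was -0.39, -0.71 and 0 in batches 1, 2 and 3, and it was -0.05 without batch 2, with 11 of 20 below 0, and -0.49 without batch 3. B2m, the light chain of all class I molecules, was 2464, 1609 and 136 FPKM against 1376, 691 and 15.6 FPKM, a log2 difference of -1.70 ± 0.49 (SE), with overlapping ranges across batches and the same direction in each. The class I heavy chain genes H2-Q4 and H2-Q6 were lower in each batch as well, by -1.06 and -1.29, and share sequence with other class I genes. Of the MHC class II genes 11 of 12 lay below 0, with a median of -0.52. H2-Ab1 was 2122, 1925 and 151 FPKM against 1662, 1248 and 58.6 FPKM and Cd74, the invariant chain, was 4923, 1835 and 178 FPKM against 3999, 1048 and 106 FPKM. The class II median was -0.04 in batch 1, -0.56 in batch 2 and -1.15 in batch 3. Cytosolic ribosomal protein genes, whose median was -0.61, had the same order with -0.01, -0.42 and -1.24. Without batch 3 the medians were -0.27 for class II and -0.22 for ribosomal proteins.

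**Figure D3:**
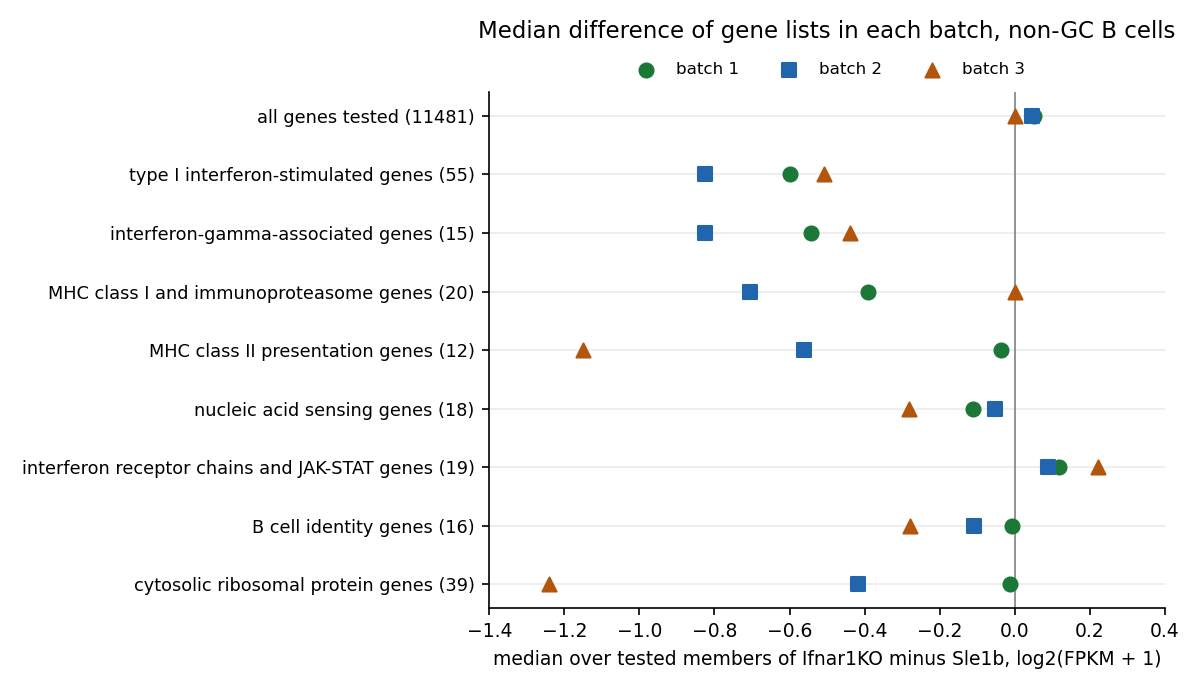
Median difference in log2(FPKM + 1), Ifnar1KO minus Sle1b, over the tested members of 8 gene lists and over all genes tested, with the number of genes in brackets and 1 symbol per batch. The type I interferon-stimulated and interferon gamma lists lie below -0.4 in every batch, whereas the class II and ribosomal lists range from near 0 in batch 1 to below -1.1 in batch 3.

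Among nucleic acid sensing genes the median was -0.22, and 2 of 18 tested members had an unadjusted p under 0.05 (3.61% of all genes). Tlr7, the endosomal receptor for single-stranded RNA on the X chromosome, was 21.3, 29.0 and 2.29 FPKM in Sle1b against 9.94, 0.698 and 0.231 FPKM in Ifnar1KO. It was lower in every batch, and its log2 difference of -2.20 ± 0.69 (SE) came most from batch 2. Mavs, the adaptor of the cytosolic RNA sensors, was 17.3, 17.5 and 18.5 FPKM against 9.15, 7.80 and 1.27 FPKM. No Ifnar1KO value of Mavs reached a Sle1b value, as was so for 0.941% of all genes. Unc93b1, which delivers Toll-like receptors to endosomes, was 84.6, 55.6 and 0.305 FPKM against 80.9, 70.4 and 4.45 FPKM, with no common direction.

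B cell identity genes were evenly divided, with 8 of 16 below 0 and a median of -0.06, and none had an unadjusted p under 0.05. In the immunoglobulin constant region list, Ighg2c was 18.1, 28.9 and 6.14 FPKM against 9.13, 5.66 and 1.25 FPKM and Ighg2b was 10.4, 12.4 and 1.42 FPKM against 5.93, 2.85 and 0.463 FPKM. These genes encode the IgG2c and IgG2b heavy chains, both were lower in every batch, and their log2 differences were -1.58 ± 0.40 and -1.08 ± 0.41 (SE). The lambda gene Iglc4 was higher in every batch, at 16.4, 9.43 and 26.9 FPKM against 30.8, 37.0 and 42.8 FPKM. The item of Ighd and Ighm, the naive B cell isotypes, was 3488, 3854 and 494 FPKM against 3309, 2798 and 417 FPKM. Among germinal centre genes Ezh2, a histone methyltransferase, was higher in every batch, at 7.54, 8.02 and 0 FPKM against 15.3, 16.4 and 5.73 FPKM, while Mybl1 was lower, at 4.19, 3.45 and 1.62 FPKM against 0.795, 1.36 and 0 FPKM. None of these immunoglobulin or germinal centre genes passed the adjusted test.

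Markers of other cells were present at low levels. The summed T cell list (17 genes) ranged from 11.8 to 122 FPKM in Sle1b and from 14.9 to 117 FPKM in Ifnar1KO, and the plasmacytoid dendritic cell list (11 genes measured, several of them shared with B cells) from 30.3 to 467 and from 24.5 to 467 FPKM. The NK and cytotoxic list (11 genes) ranged from 19.2 to 54.2 FPKM in Sle1b and from 2.81 to 27.1 FPKM in Ifnar1KO, and the myeloid list (19 genes) from 18.6 to 82.8 and from 4.41 to 76.0 FPKM. Cd14, C1qa and C1qb were listed at 0 in all 6 libraries. Within these lists Klrk1, an activating receptor of NK and T cells, was 10.9, 2.82 and 20.7 FPKM against 1.56, 1.38 and 1.39 FPKM. Ly6c2, a monocyte antigen that lymphocytes can also express, was 4.70, 2.66 and 2.23 FPKM against 1.298, 0 and 0.228 FPKM, and both genes were lower without overlap (0.941% of all genes). Other members differed in direction: Gzma, a granzyme, was listed at 0 in Sle1b and was 15.2 FPKM in Ifnar1KO in batch 2, and of 9 tested myeloid genes 2 were lower and 1 was higher in all 3 batches. Over these whole lists the NK sum was lower in Ifnar1KO in batches 1 and 3 and the myeloid sum in all 3 batches. Smaller marker sets differed. The sum of 6 myeloid markers was 30.7, 25.1 and 0.379 FPKM in Sle1b against 38.8, 3.98 and 0.916 FPKM in Ifnar1KO. For 5 NK markers it was 34.2, 6.19 and 0 FPKM against 10.6, 17.6 and 1.42 FPKM. The part of such cells in the interferon-stimulated genes was not tested.

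Over all genes tested, 1220 were lower and 1159 higher in all 3 batches. The 30 of these with the smallest p held 19 lower and 11 higher genes, and 6 of them, described above, were members of the type I list. The smallest p belonged to Cyfip1, on chr7:55841745-55930700, which encodes a regulator of actin assembly and translation. It was higher in Ifnar1KO, at 22.3, 17.3 and 3.65 FPKM in Sle1b against 248, 130.4 and 27.9 FPKM, with log2 differences of 3.42, 2.84 and 2.64 and an unadjusted limma p of 0.000255 (adjusted p = 0.893). Apbb2, an adaptor of the amyloid precursor protein on chr5:66298861-66618828, was nearly undetected in Sle1b, at 0.155, 0 and 0.245 FPKM, and was 8.316, 10.01 and 4.315 FPKM in Ifnar1KO. Gm23850, annotated in RefSeq as a small nuclear RNA, was listed at 0 in the Sle1b libraries and was 8.24, 27.7 and 10.4 FPKM in Ifnar1KO.

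Fam63a, a deubiquitinase (RefSeq Mindy1), Camsap1, a microtubule minus-end protein, and the phosphatase gene Ptpn18 were higher in every batch, with log2 differences of 1.86, 1.91 and 1.88. Slc8b1, a mitochondrial sodium-calcium exchanger, and Zswim1 were higher as well, by 1.86 and 1.83. Among the lower genes, Eif6, which keeps the large ribosomal subunit from joining too early, was 34.4, 15.9 and 9.40 FPKM against 3.55, 5.14 and 0 FPKM. Mylpf, a skeletal muscle myosin light chain, was 28.5, 1.65 and 12.8 FPKM against 1.59, 0 and 0 FPKM. The cochaperone Ttc4, Rilpl1, Cml1 (RefSeq Nat8f1) and the RNA decapping enzyme Dxo had log2 differences of -1.92, -2.39, -1.90 and -1.74. Mir6395, a microRNA locus, was 6.92, 8.65 and 7.67 FPKM against 0.273, 0.768 and 0 FPKM, and Gm14446 (RefSeq Ifit1bl1, an Ifit1 relative) was 10.3, 13.0 and 3.39 FPKM against 2.37, 1.88 and 0 FPKM. The heavy chain variable segment Ighv1-78 was 54.4, 6.18 and 22.2 FPKM against 18.6, 0 and 0 FPKM. For Apbb2, Eif6, Mir6395 and Gm14446 the 3 values of one genotype lay wholly apart from those of the other, as was so for 0.941% of all genes in the lower and 1.02% in the higher direction. Apbb2, Gm23850, Slc8b1 and Zswim1 passed the filter through the Ifnar1KO libraries alone, and Mir6395 and Cml1 through the Sle1b libraries alone. The ranges of Mylpf were also apart, though by little, and those of Ighv1-78 overlapped across batches.

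The authors' deposited tables tested 1 library against 1 library in each batch, with no replication. Only named loci that the authors tested were counted here. In batch 1 the authors' deposited table marked 51 of 11907 named loci (0.428%), of which 22 (0.185%) were lower in Ifnar1KO. In batch 2 the authors' deposited table marked 44 of 11764 named loci (0.374%), with 25 (0.213%) lower. For batch 3 the authors' deposited table marked 1492 of 10317 named loci (14.5%), with 973 (9.43%) lower. Among members of the type I list, the authors' deposited tables marked 7 as lower and none as higher in batch 1, and 9 as lower and none as higher in batch 2. In batch 3 the authors' deposited table marked 3 members, of which Pydc4 was lower and Gbp2 and Ifit2 were higher. Genes marked in the same direction in batches 1 and 2 of the authors' deposited tables were Mx1, Oas1a, Oasl1, Pydc4 and Rtp4, which were lower, and Apbb2, which was higher. Apbb2 and Pydc4 were marked in all 3 of the authors' deposited tables.

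The 3 pairs of libraries repeated each other little over all genes. Across the 11481 genes, Pearson's correlation of the log2 differences of batches 1 and 2 was 0.06, that of batches 1 and 3 was 0.03 and that of batches 2 and 3 was 0.03. Over the 55 type I list members the same correlations were 0.62, 0.24 and 0.46. These are descriptions across genes of 2 pairs of libraries, and genes are not independent replicates. The standard deviation of the differences over all genes was 0.80 in batch 1, 0.89 in batch 2 and 1.40 in batch 3.

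**Figure D4:**
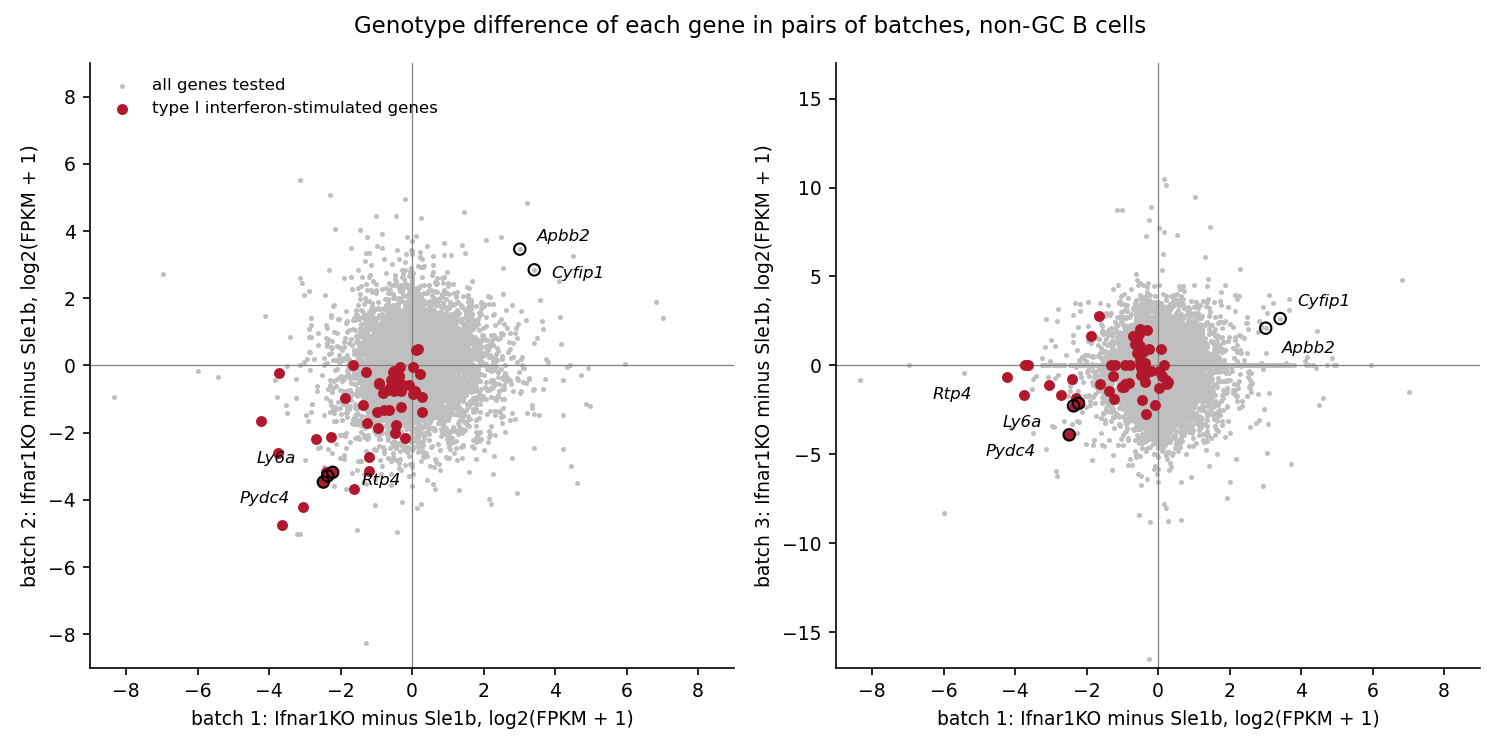
Difference in log2(FPKM + 1), Ifnar1KO minus Sle1b, of each of the 11481 tested genes (grey) and of the 55 type I interferon-stimulated genes (red) in batch 1 against batch 2 (left) and batch 1 against batch 3 (right, with a wider vertical axis). The grey clouds have no slope, most red points lie below and to the left of 0 in the left panel, and Cyfip1 and Apbb2 lie far to the upper right in both.

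The same genotypes were compared in germinal centre B cells of the series, with 12 libraries in 1 fit and values joined within each batch, to test whether the difference depended on cell type. No gene of 14595 (0%) passed the interaction test of limma, 532 (3.65%) had an unadjusted p under 0.05, and the smallest adjusted p was 0.996. Over the 55 members of the type I list, the median log2 difference was -0.66 in non-GC cells and -0.54 in GC cells. The median of all 14595 genes was 0.02 in non-GC cells and -0.26 in GC cells, so the 2 list medians stood on unlike backgrounds. In batches 1, 2 and 3 the list median was -0.44, -0.78 and -0.56 in non-GC cells and -0.87, -0.64 and -0.04 in GC cells. In non-GC cells 28 members were lower in all 3 batches (8.44% of all genes), and in GC cells 23 were (19.6% of all genes). The background share was thus higher in GC cells. Among these 55, Rtp4, Pydc4, Oas2 and Parp14 had a lower difference in non-GC than in GC cells at an unadjusted interaction p under 0.05. The 55 had passed the filter on the non-GC libraries, whereas 63 members passed the filter on all 12 libraries. Rtp4 and Oas2 had passed through the Sle1b non-GC libraries alone. This choice of members favours a lower difference in non-GC cells, so these 4 genes are only described. Of all genes 0.658% had one in that direction. Isg20 had a lower difference in GC cells.

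Rtp4 differed by -2.45 in non-GC and by -0.15 in GC cells (difference -2.31 ± 0.65 SE), and among the GC libraries it was listed at 0 in 2 of 3 Sle1b and 2 of 3 Ifnar1KO libraries. Pydc4 differed by -3.23 in non-GC and by -0.31 in GC cells. Isg20 differed by -1.39 in non-GC and by -3.22 in GC cells, where its joined level was 13.5, 25.7 and 5.72 FPKM in Sle1b against 0, 2.33 and 0 FPKM in Ifnar1KO. The adjusted p of all 3 was 0.996. The smallest interaction p over all genes belonged to Gm23850, which was listed at 0 in all 6 GC libraries, followed by Plcxd2, Commd10, Zswim1 and Dguok. Gm8428, Ccdc43, Rab13, Gm14542 and Mxd3 completed the first 10. Plcxd2, for example, had joined levels of 4.13, 18.2 and 0 FPKM against 8.37, 26.3 and 0.185 FPKM in non-GC cells, with a log2 difference of 0.56 against -3.96 in GC cells.

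**Figure D5:**
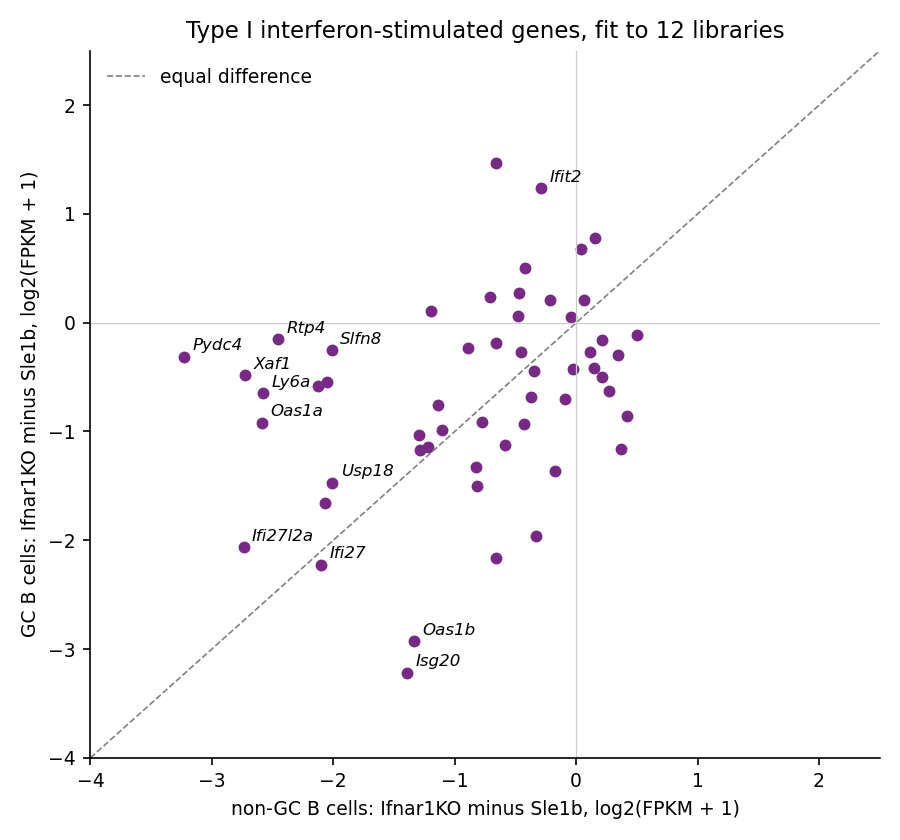
Fitted difference in log2(FPKM + 1), Ifnar1KO minus Sle1b, in non-GC B cells (horizontal) and GC B cells (vertical). Each point is 1 of the 55 type I interferon-stimulated genes that passed the filter on the non-GC libraries, and the dashed line marks equal differences. Pydc4, Rtp4 and Xaf1 lie far left near 0 on the vertical axis, whereas Isg20 and Oas1b lie lower in GC cells.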

How the data were processed

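Per the submitters' processing notes, the tools were Cuffdiff, Cufflinks 2.2.1, TopHat2 2.0.9, Bowtie2 2.1.0 and CASAVA, and the build was GRCm38 (mm10). Per the labels' protocols, cDNA was made with the SMARTer Ultra Low Input kit and Nextera XT. The authors' deposited tables give, for 506504 loci, the FPKM of 2 libraries and the authors' p-value and q-value. No source states that strand was kept, so reads of overlapping or antisense genes may be mixed. The 45241 named loci were summed by symbol, and symbols that shared a locus were joined (43622 items, of which 9 failed ones were left out). No column of sample values was left unused.

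The main test was limma 3.58.1 (R 4.3.3) on log2(FPKM + 1), with batch as a block, a variance trend and Benjamini-Hochberg adjustment over the 11481 genes with at least 1 FPKM in 3 of 6 libraries. The scripts were tested on simulated data. Libraries of a batch share a table, and deviations from the group means correlated at 0.53, 0.40 and 0.62 within batches 1, 2 and 3, so the numbers were taken as pairs. The GC comparison joined tables within a batch by least squares (14595 genes).

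Older symbols were matched through RefSeq synonyms. Gene lists and members were chosen with earlier results of these data known, and the role groups within the type I list were drawn after the values were seen. Named genes were Ifnar1 and its neighbours, type I list members, up to 4 genes of smallest p in other lists, the 30 same-direction genes of smallest p with at most 3 predicted ones, the first 10 of the interaction, genes marked in all 3 of the authors' tables and cell markers. Tyk2, Unc93b1 and the item of Ighd and Ighm were picked after their values were seen. Other pseudocounts, filters, scalings, sample sets and fits without the block or a pair were tried. Some items are not reported here.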

Additional observations from a re-analysis of the deposited data

How the results depend on the processing

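No gene passed an adjusted p of 0.05 in limma in any of the 12 alternatives of the comparison or the 5 of the interaction. The number of genes at an unadjusted p under 0.05 was 415, and it was 229 with a pseudocount of 0.1, 219 with a filter of 5 FPKM, 262 with all 12 libraries, 40 with no replicate block, 704 without batch 3 and 769 without batch 3 and with the filter redone. Ifnar1 and the genes named for their small p, 58 in all, kept their direction wherever they were tested, with adjusted p between 0.114 (Gm23850, all 12 libraries) and 1. Genes with the same sign in every batch could not change direction when a pair was left out or the pseudocount changed. For them the kept direction is therefore no check. Of the 37 other tested type I members, 11 changed sign without batch 3, 10 of them to lower (Daxx -0.82, Slfn2 -0.62), 3 without batch 1 and 2 without batch 2. The type I list median of -0.70 was -1.02 with a pseudocount of 0.1, -0.53 with the filter of 5 FPKM and between -0.80 (without batch 1) and -0.46 (without batch 2) when 1 batch pair was left out. Its count of members lower in every batch, 26, was 46 over batches 1 and 2, an alternative chosen after seeing the data, in which fewer pairs must share a sign. The JAK-STAT median was 0.26 with all 12 libraries and between 0.13 and 0.32 when 1 pair was left out. The interferon gamma median was -0.48 with no filter, and the nucleic acid sensing median lay between -0.36 and -0.13 when 1 pair was left out. The cause of these shifts was not tested. The replicate block changed no call. With 3 pairs, and about 4 to 6 reads behind 1 FPKM on 1 kb, small differences of low genes were not detectable. Large differences of higher genes did not pass the limma test either, such as 2.97 for Cyfip1 and -2.64 for Ly6a (adjusted p = 0.893 for both).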
